A study of Mus musculus with 48 samples.

Results

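The livers of 8 female Cyp2b-null mice, 4 given 10 mg/kg/day PFOS (10-PFOS) and 4 given none (0-PFOS), are described here across all expressed genes. They were chosen by sex, genotype and dose from 48 livers in all, 4 in each of 12 groups of males and females of 2 genotypes given no PFOS or 1 of 2 doses, 1 and 10 mg/kg/day. PFOS, perfluorooctane sulfonate, is a fluorinated surfactant that persists in the body and builds up in the liver. It was dissolved in water with a detergent and given by gavage for 21 days to mice of 10 to 12 weeks on a normal diet with 18% of its energy as fat. Every mouse of both groups carried a CRISPR/Cas9 deletion of Cyp2b9, Cyp2b10 and Cyp2b13, the Cyp2b genes that mouse liver mainly uses, on a C57Bl/6J background. The deletion is in the germ line and so in every tissue, and no liver with intact Cyp2b genes is part of the comparison. Each library held the messenger RNA of 1 liver from 1 mouse. Female hCYP2B6-Tg mice, which carry the same deletion and a human transgene with CYP2B6, CYP2A13 and CYP2F1, and Cyp2b-null females given 1 mg/kg/day (1-PFOS) are used only where stated.

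The liver answers foreign compounds and fatty acids through receptors that switch on sets of genes. PPARα, which binds fatty acids and many perfluorinated acids, drives the genes that burn fat in peroxisomes and mitochondria. CAR and PXR drive P450 enzymes, conjugating enzymes and exporters, and NRF2 answers oxidants and reactive compounds with glutathione enzymes and reductases. Hepatocytes also make most of the proteins of blood plasma, and in mice many of their genes depend on sex through the pattern of growth hormone.

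Library totals lay between 44416597 and 73391609 counts in the 0-PFOS mice and between 47793547 and 60039974 in the 10-PFOS mice, and the difference of the means did not pass (exact permutation test, two-sided, p = 0.6286). The 10 highest genes took 21.5% ± 0.269 (SD, n = 4) of the counts at 0-PFOS and 17.9% ± 0.682 at 10-PFOS (exact permutation test, p = 0.0286, the lowest that 4 against 4 allows). Defining markers of hepatocytes were high in every library, with the 10 markers summing to 112100 to 120600 CPM, counts scaled to a common library total, at 0-PFOS and 52640 to 63130 CPM at 10-PFOS. Of these sums Alb, serum albumin, alone held 71047 to 80198 CPM at 0-PFOS and 29246 to 35646 CPM at 10-PFOS. Distances between mice (root sum of squared log2 CPM differences over all tested genes) were 44.66 to 52.11 within 0-PFOS, 49.79 to 74.29 within 10-PFOS and 92.58 to 114.3 between the groups. The first principal component held 66.2% of the variance and separated the groups. Mouse 4 of the 10-PFOS group sat farthest from its group, and where leaving out 1 mouse, this or another, moved a fold change by more than 1.5 times, the value without it is given in the same paragraph.

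Of 40847 genes counted, 13193 were tested because 3 or more of the 4 mice of any female group had over 1 CPM. Between 10-PFOS and 0-PFOS, 4867 genes differed at an adjusted p below 0.05 (edgeR's quasi-likelihood F test, Benjamini-Hochberg adjusted, 4 mice a group), 2522 higher (19.1% of the genes tested) and 2345 lower (17.8%). With a log2 fold change beyond 1 as well, 565 genes were called higher (4.28%) and 826 lower (6.26%). The values of the 4 mice of each group did not overlap for 2511 tested genes higher at 10-PFOS (19.0%) and 2459 lower (18.6%), and for 508 of the 565 and 757 of the 826 genes called. Over all tested genes the median log2 fold change was −0.0142, close to 0. Genes called higher made up 5.44% to 6.16% of all counts of each 0-PFOS mouse and 23.05% to 24.3% of each 10-PFOS mouse, and genes called lower 21.9% to 23.8% and 6.96% to 8.02%. Most changes were small, with 384 of the rises and 659 of the falls between 1 and 2 on the log2 scale, but 30 rises and 12 falls lay beyond 5. Below, a gene of a list is said to have risen or fallen at an adjusted p below 0.05 alone. List counts are to be read against the 19.1% and 17.8% of all tested genes. Some genes stand on more than 1 list, so the counts of different lists are not independent. Values of single mice are CPM in the order of mouse 1 to 4, and log2 fold changes are given ± their standard error.

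**Figure D1:**
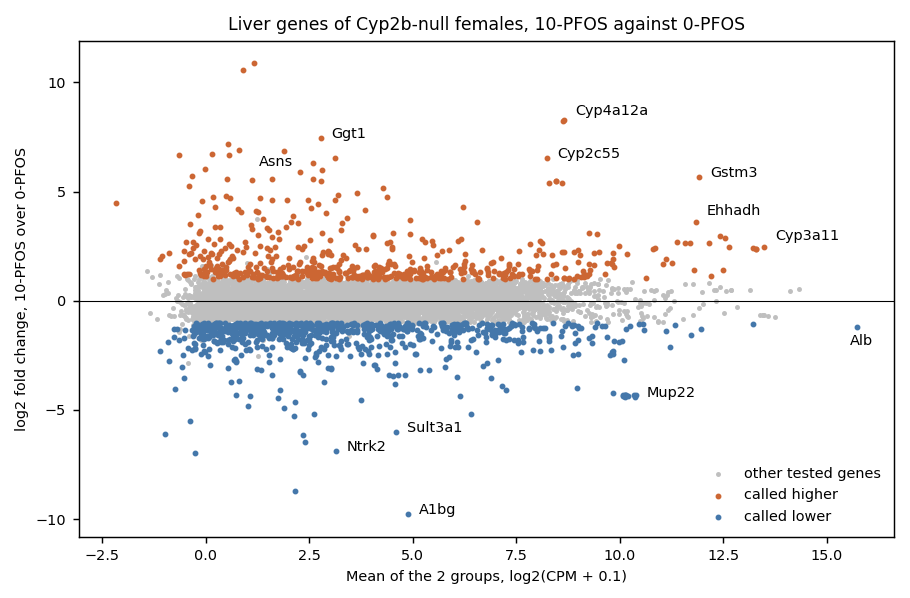
Each point is 1 of the 13193 genes tested, with the mean of the 0-PFOS and 10-PFOS groups as log2(CPM + 0.1) on the horizontal axis and the log2 fold change of 10-PFOS over 0-PFOS on the vertical axis. The 565 genes called higher (orange) and 826 called lower (blue) spread over the whole range of levels, from Ggt1 and A1bg at low levels in 1 of the groups to Cyp3a11 and Alb among the most abundant.

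Reads were counted for the deleted genes in all 8 livers. Cyp2b10, the classic CAR target, had 0.593, 0.412, 1.71 and 0.668 CPM at 0-PFOS and 12.3, 15.1, 13.5 and 15.1 CPM at 10-PFOS. Cyp2b9 had 0.906, 0.577, 3.49 and 1.02 CPM at 0-PFOS and 28.6, 27.8, 22.9 and 29.9 CPM at 10-PFOS, and Cyp2b13 0.0349, 0.124, 0.659 and 0.107 CPM at 0-PFOS and 6.04, 6.26, 4.38 and 5.97 CPM at 10-PFOS. All 3 were higher in each of the 10-PFOS mice than in any 0-PFOS mouse, and 0-PFOS mouse 3 was the highest of its group for each. The log2 fold changes were 4.03 ± 0.37, 4.18 ± 0.43 and 4.59 ± 0.68 (adjusted p = 1.6e-08, 8.2e-08 and 1.2e-05). The intact Cyp2b19 (0.107 to 0.56 CPM at 0-PFOS, 3.61 to 5.27 CPM at 10-PFOS) and Cyp2b23 (0 to 0.264 and 1.18 to 1.78 CPM) rose by 4.06 ± 0.51 and 3.92 ± 0.76 (adjusted p = 1.5e-06 and 3.0e-04). The count table does not hold positions of reads, so reads of these similar genes cannot be told apart, and whether those counted for the deleted genes came from other Cyp2b genes was not tested. Without 0-PFOS mouse 3 the log2 fold change was 4.63 for Cyp2b10, 5.02 for Cyp2b9, 5.97 for Cyp2b13, 4.78 for Cyp2b19 and 5.29 for Cyp2b23.

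Genes of fatty acid oxidation rose together, led by the Cyp4a enzymes, which hydroxylate the far end of fatty acids and are the best known PPARα targets of mouse liver. All 7 tested of 8 Cyp4a genes rose (median log2 fold change 2.69), against 19.1% of all tested genes. Cyp4a12a, an enzyme that female liver normally keeps low, had 2.23, 1.73, 3.26 and 3.15 CPM at 0-PFOS and 898, 862, 963 and 489.7 CPM at 10-PFOS. That is the largest rise among genes of at least 10 CPM without overlap, a factor of 309.6 between means (8.27 ± 0.37, adjusted p = 2.4e-13), with mouse 4 lowest of the treated mice. Its near-identical neighbour Cyp4a12b, whose counts follow it in every mouse, rose by 8.24 ± 0.37. Cyp4a14 had 1012, 1145, 1448 and 1380.1 CPM at 0-PFOS and 7914, 7405, 7968 and 8360.5 CPM at 10-PFOS, and here the 4 treated mice lay close together. It rose by 2.67 ± 0.22 (adjusted p = 4.9e-09), and the Cyp4a10, Cyp4a31 and Cyp4a32 group, which shares reads, by 2.65 ± 0.18, 2.69 ± 0.18 and 2.65 ± 0.18.

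In the peroxisome, 15 of 28 tested genes rose and 1 fell (median 0.47). Ehhadh, the bifunctional enzyme of peroxisomal β-oxidation, stood at 677, 646, 476 and 428 CPM at 0-PFOS and 7672, 6865, 7067 and 5577 CPM at 10-PFOS. The treated mice lay 12.2 times above the untreated ones on average (3.61 ± 0.21, adjusted p = 2.4e-11) and the groups were far apart. The thiolases Acaa1a (1.67 ± 0.20) and Acaa1b (1.71 ± 0.21) and Pex11a, which helps peroxisomes divide (1.78 ± 0.19), rose by less. In mitochondria 17 of 25 genes rose and 1 fell (median 0.80), at smaller sizes. The trifunctional protein subunits Hadhb (1.21 ± 0.11) and Hadha (0.93 ± 0.10), the dienoyl-CoA reductase Decr1 (1.13 ± 0.11), the medium-chain dehydrogenase Acadm (1.06 ± 0.13) and the carnitine transferase Cpt2 (1.00 ± 0.12) had an adjusted p of at most 1.7e-06. Fgf21, a fasting hormone driven by PPARα and ATF4, had 4.43, 2.43, 1.19 and 3.18 CPM at 0-PFOS and 6.61, 5.81, 8.98 and 3.97 CPM at 10-PFOS and did not pass (1.17 ± 0.62, adjusted p = 0.15), and the groups overlapped.

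Acyl-CoA thioesterases release free fatty acids from coenzyme A, and all 11 tested rose (median 1.03). Acot1 had 111 to 178 CPM at 0-PFOS and 1021 to 1392 CPM at 10-PFOS (3.08 ± 0.29, adjusted p = 1.9e-08) and the mitochondrial Acot2 96.7 to 152 CPM at 0-PFOS and 867 to 1222 CPM at 10-PFOS (3.12 ± 0.31, adjusted p = 5.4e-08), with no overlap. Genes of fatty acid uptake and lipid droplets were mixed, 12 of 23 tested rising and 2 falling. Cidec, a droplet coat protein that fuses droplets, had 1.36, 0.33, 0.329 and 0.642 CPM at 0-PFOS and 17.8, 16.8, 11.4 and 19.7 CPM at 10-PFOS, about 24.7 times as much with treatment (4.61 ± 0.42, adjusted p = 1.3e-08). Lpl, the lipase that frees fatty acids from lipoproteins and is low in adult liver, had 14.8, 25.4, 12.7 and 17.8 CPM at 0-PFOS and 158, 139, 125 and 77.0 CPM at 10-PFOS. It was above every untreated mouse in each treated one and lowest in mouse 4 (2.82 ± 0.27, adjusted p = 2.7e-08). Vldlr, a lipoprotein receptor (2.71 ± 0.27), and Cd36, a fatty acid carrier (1.60 ± 0.20), rose likewise, whereas Slc27a5, which takes up fatty acids and activates bile acids, fell by 0.70 ± 0.11 on the log2 scale (adjusted p = 2.8e-05). Without 0-PFOS mouse 1 the log2 fold change was 5.21 for Cidec.

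Genes that make fat split the treated mice. Of 22 tested, 8 rose and 4 fell (median 0.43). Gpam, the first enzyme of triglyceride synthesis, had 241, 232, 159.6 and 165 CPM at 0-PFOS and 1309, 442, 1444 and 217 CPM at 10-PFOS. Mice 1 and 3 of the 10-PFOS group were high, mouse 2 intermediate and mouse 4 within the untreated range. Thrsp, a regulator of fat synthesis, had 81.8, 55.7, 63.8 and 54.4 CPM at 0-PFOS and 333, 148, 711 and 65.2 CPM at 10-PFOS, in the same order. Me1, malic enzyme, had 179.8, 176, 158 and 134 CPM at 0-PFOS and 603, 393, 854 and 171 CPM at 10-PFOS, and Acaca, the acetyl-CoA carboxylase, 129.6, 139, 90.7 and 111 CPM at 0-PFOS and 346, 200.4, 358 and 119.5 CPM at 10-PFOS. All 4 passed with overlapping groups, at 2.10 ± 0.37, 2.30 ± 0.62, 1.64 ± 0.33 and 1.12 ± 0.25 (adjusted p = 1.0e-04, 0.005, 4.0e-04 and 0.0011). The long-chain elongases Elovl2 (442 to 630.2 against 221 to 291 CPM) and Elovl5 (476 to 813 against 156 to 461 CPM) fell without overlap, with log2 fold changes of −1.13 ± 0.13 and −1.12 ± 0.30 (adjusted p = 6.2e-07 and 0.0047). In cholesterol synthesis and uptake 1 of 25 rose and 3 fell. Without 10-PFOS mouse 3 the log2 fold change was 1.51 for Thrsp.

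The list of CAR and PXR targets, P450s with the non-P450 genes Por and Alas1, rose in 22 of 22 tested (median 2.38). It was written with earlier results of these data known, and Cyp2c genes that fell stand among the other P450s below. The summed level of the list was 21090 to 30340 CPM in the untreated mice and 107300 to 120800 CPM in the treated mice. Cyp3a genes of the list share reads, so the sum may count the same reads more than once. Cyp3a11, the main Cyp3a enzyme of mouse liver and the standard PXR target, had 3297, 2959, 4298 and 3569 CPM at 0-PFOS and 17810.0, 18781, 21312 and 19816 CPM at 10-PFOS. The treated mice lay within a narrow band 5.5 times above the untreated ones (2.46 ± 0.15, adjusted p = 4.6e-11). Cyp3a41a, Cyp3a41b, Cyp3a44 and Cyp3a16, normally higher in females, shared many reads with it and rose by 2.38, 2.38, 2.40 and 2.47. Cyp2c29, a CAR target, had 1363, 1223, 1698 and 1497 CPM at 0-PFOS and 10418, 10018, 11101 and 10376 CPM at 10-PFOS (2.86 ± 0.14, adjusted p = 5.2e-13). Cyp2c55, which is low in untreated liver, had 5.72, 5.81, 8.34 and 5.59 CPM at 0-PFOS and 653, 587, 685 and 461 CPM at 10-PFOS, a factor of 93.7 (6.55 ± 0.32, adjusted p = 7.7e-13), and Cyp2c65 had 0.0824 to 0.329 CPM at 0-PFOS and 10.1 to 17.8 CPM at 10-PFOS (5.98 ± 0.55, adjusted p = 1.6e-08). Of 5 tested targets of a further receptor, AhR, 1 rose (Nqo1, also on the list of NRF2 targets) and 1 fell. Cyp1a1, its standard target, had 44.8, 43.4, 63.3 and 47.3 CPM at 0-PFOS and 63.2, 69.4, 56.2 and 64.6 CPM at 10-PFOS with overlap (0.35 ± 0.17, adjusted p = 0.11), but passed without 0-PFOS mouse 3 (log2 fold change 0.49, adjusted p = 0.035). The count of AhR targets that rose was 3 without 0-PFOS mouse 3.

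Other P450s fell more often than they rose, 15 against 6 of 32 tested. Cyp4f14, which inactivates leukotrienes and vitamin E, had 260.5, 258, 263 and 295 CPM at 0-PFOS and 18.3, 18.8, 19.3 and 16.3 CPM at 10-PFOS. Each treated mouse was far below each untreated one, by a factor of 14.8 between means (−3.89 ± 0.23, adjusted p = 2.5e-11). Cyp2c40, Cyp2c67, Cyp2c68 and Cyp2c69, which share reads, fell, with log2 fold changes of −2.35, −2.42, −2.29 and −2.48, and Cyp17a1, an enzyme of steroid synthesis, had 31.0 to 54.3 CPM at 0-PFOS and 3.001 to 7.55 CPM at 10-PFOS (−2.85 ± 0.36, adjusted p = 1.5e-06). The count of other P450s that rose was 3 without 10-PFOS mouse 3.

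Glutathione S-transferases, which couple glutathione to reactive compounds, rose in 16 of 21 tested (median 1.66) and fell in 1. Gstm3 had 150.1, 146, 153 and 144 CPM at 0-PFOS and 8262, 7491, 10180.0 and 4521 CPM at 10-PFOS, a rise of 51.3 times with mouse 3 highest and mouse 4 lowest (5.68 ± 0.34, adjusted p = 3.3e-11). Gstm1, abundant already without PFOS, had 1303, 1290.3, 1254 and 1183 CPM at 0-PFOS and 10536, 8956, 11778 and 7906 CPM at 10-PFOS (2.96 ± 0.18, adjusted p = 4.6e-11). Gsta1 and Gsta2, which share reads, had 9.95 to 28.0 and 12.2 to 34.3 CPM without PFOS, each with mouse 3 highest, and 445 to 880.0 and 509 to 978 CPM with it (5.50 ± 0.54 and 5.40 ± 0.52 on the log2 scale, adjusted p = 3.7e-08 and 3.3e-08). Ggt1, the enzyme that begins the breakdown of glutathione outside the cell and is low in adult liver, had 0, 0.165, 0.0329 and 0.107 CPM at 0-PFOS and 20.9, 12.8, 19.0 and 1.17 CPM at 10-PFOS. Mouse 4 was low among the treated mice but above every untreated one (7.45 ± 0.94, adjusted p = 3.1e-06).

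NRF2 targets rose in 18 of 27 tested and fell in 1 (median 1.13). Cbr3, a carbonyl reductase, had 0.453, 0.907, 0.626 and 0.508 CPM at 0-PFOS and 20.7, 18.1, 12.2 and 19.2 CPM at 10-PFOS (4.83 ± 0.32, adjusted p = 1.2e-10), and the treated mice were 28.1 times above the untreated ones. Abcc4, which pumps bile acids and drug conjugates out of hepatocytes into blood, had 8.37, 6.88, 8.53 and 5.24 CPM at 0-PFOS and 171, 159, 101 and 137 CPM at 10-PFOS. All 4 treated mice were at least 10 times above any untreated one (4.29 ± 0.30, adjusted p = 2.6e-10). The sulfiredoxin Srxn1 (2.15 ± 0.16), the glucuronic acid supplier Ugdh (2.14 ± 0.16), the reductase Gsr (1.37 ± 0.11) and the epoxide hydrolase Ephx1 (1.65 ± 0.15) rose at an adjusted p of at most 1.3e-08. Gpx2, a glutathione peroxidase of gut, had no count in any of the 4 untreated mice and 4.82, 3.53, 6.77 and 2.16 CPM in the treated mice, at least 348-fold higher than 3 counts over the untreated group (0.0124 CPM) would give (adjusted p = 1.6e-07). Nqo1 had 9.17, 7.13, 8.17 and 8.58 CPM at 0-PFOS and 26.2, 22.3, 26.8 and 26.3 CPM at 10-PFOS (1.62 ± 0.19, adjusted p = 4.9e-07). Gclm, the modifier subunit of the enzyme that makes glutathione and a usual NRF2 target, had 118, 139.6, 139 and 135 CPM at 0-PFOS and 157, 155, 151 and 148 CPM at 10-PFOS. It did not pass (0.20 ± 0.09, adjusted p = 0.069), though each treated mouse was above every untreated one.

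RefSeq promoters (300 bases each, 250 before and 50 after the start, build GRCm38.p6) matched 23 of the 27 NRF2 targets by symbol. The letters TGACNNNGC, a core of the antioxidant response element that NRF2 binds, were in 10 of the 23 on either strand, in 14% of the 27025 genes with a promoter and in 16.6% of the 10134 tested genes with one. The list was written from genes known as NRF2 targets, so its share is no independent evidence. In Me1, Pgd and Srxn1 the match was not wholly before the start. The windows that follow show 1 match before the start for each of the other 7 members, of which 5 rose, 1 fell and 1 did not pass, 5′ to 3′ on the strand of the gene, with the match in capitals.
Abcc4: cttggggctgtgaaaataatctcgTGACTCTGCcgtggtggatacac
Htatip2: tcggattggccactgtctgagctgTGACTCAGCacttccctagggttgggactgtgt
Ugdh: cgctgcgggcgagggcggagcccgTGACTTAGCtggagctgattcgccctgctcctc
Abcc2: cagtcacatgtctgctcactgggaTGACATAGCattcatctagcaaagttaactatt
Txnrd1: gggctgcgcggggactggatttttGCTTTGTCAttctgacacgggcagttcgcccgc
Gclm: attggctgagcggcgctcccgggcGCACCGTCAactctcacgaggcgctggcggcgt
G6pdx: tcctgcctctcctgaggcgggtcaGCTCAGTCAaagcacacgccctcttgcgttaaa
They lie at chr14:118676932-118676978 (minus strand), chr7:49759439-49759495 (plus strand), chr5:65435942-65435998 (minus strand), chr19:43782186-43782242 (plus strand), chr10:82859090-82859146 (plus strand), chr3:122245399-122245455 (plus strand) and chrX:74428905-74428961 (minus strand), before the start of each gene. Htatip2, a short-chain reductase, rose by 1.56 ± 0.13, the canalicular exporter Abcc2 by 1.13 ± 0.16 and the thioredoxin reductase Txnrd1 by 0.76 ± 0.10 (adjusted p = 2.7e-09, 6.0e-06 and 4.0e-06), beside Ugdh and Abcc4 above. A match of letters is a description of the promoter and no binding site, and of the genes shown Gclm did not pass and G6pdx, the first enzyme of the pentose phosphate pathway, fell, with 3.82, 5.92, 3.62 and 4.08 CPM at 0-PFOS and 2.63, 2.33, 2.72 and 2.19 CPM at 10-PFOS (−0.82 ± 0.20, adjusted p = 0.0029). The letters TCANAGGTC, the inner part of the repeat that PPARα binds with RXR, were in none of the matched promoters of 2 Cyp4a, 20 peroxisomal, 21 mitochondrial and 9 thioesterase genes and in 1.25% of all genes, and TCACNCCAC, a sterol element, in 1 of 17 cholesterol genes (Hmgcs1) and 1.44% of all, which says only that these letters are not in the windows searched.

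Enzymes of aldehydes, epoxides and lipid mediators rose more often than they fell. Of 25 aldehyde dehydrogenases and aldo-keto reductases 12 rose and 3 fell. Aldh1a1, which makes retinoic acid, had 998, 747, 1138 and 813 CPM at 0-PFOS and 4170.1, 3172, 3975 and 2734 CPM at 10-PFOS (1.93 ± 0.17, adjusted p = 7.6e-09), and Aldh3a2, which oxidises fatty aldehydes, 414, 370.0, 455 and 420.1 CPM at 0-PFOS and 1636, 1234, 1544 and 1020.2 CPM at 10-PFOS (1.71 ± 0.15, adjusted p = 8.1e-09). No treated mouse overlapped an untreated one in either. Akr1b7, an aldo-keto reductase, had 2.09, 0.701, 1.52 and 1.79 CPM at 0-PFOS and 10.5, 18.3, 16.4 and 26.4 CPM at 10-PFOS (3.54 ± 0.31, adjusted p = 1.0e-08). Of 20 epoxide hydrolases and lipid mediator genes 8 rose and 5 fell. Ptges, which makes prostaglandin E, was close to 0 without PFOS, with 0.0349, 0, 0.0329 and 0.0267 CPM at 0-PFOS and 2.19, 0.987, 2.83 and 1.05 CPM at 10-PFOS (6.03 ± 0.72, adjusted p = 7.3e-07). The cyclooxygenase Ptgs1 fell by 1.26 ± 0.14 on the log2 scale (adjusted p = 2.3e-07). Of 28 nuclear receptors and partners themselves 4 rose and 8 fell. Ppara, which encodes PPARα, had 279.5, 280.1, 211 and 248 CPM at 0-PFOS and 191, 131, 142 and 171 CPM at 10-PFOS (−0.68 ± 0.16, adjusted p = 0.0023), and Nfe2l2, which encodes NRF2, 36.3, 39.1, 40.7 and 44.9 CPM at 0-PFOS and 86.2, 63.1, 79.9 and 43.3 CPM at 10-PFOS (0.76 ± 0.19, adjusted p = 0.003). The CAR gene Nr1i3 (66.4 to 76.4 and 44.8 to 70.0 CPM, −0.38 ± 0.18, adjusted p = 0.11) and the PXR gene Nr1i2 (51.4 to 67.4 and 64.3 to 82.3 CPM, 0.33 ± 0.14, adjusted p = 0.072) did not pass. Nr1i3 passed without 10-PFOS mouse 4 (log2 fold change −0.51, adjusted p = 0.04) and Nr1i2 without 0-PFOS mouse 3 (log2 fold change 0.42, adjusted p = 0.035). The count of nuclear receptors that rose was 2 without 0-PFOS mouse 2, 10-PFOS mouse 1 or 10-PFOS mouse 3.

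Conjugating and hydrolysing enzymes went both ways. Of 18 genes of glucuronidation 10 rose and 7 fell. Ugt1a9, which shares its last exons with the other Ugt1a genes, had 24.3, 29.1, 43.3 and 37.0 CPM at 0-PFOS and 175, 170.0, 167 and 164 CPM at 10-PFOS (2.34 ± 0.20, adjusted p = 8.6e-09), while Ugt2a3 fell by 0.79 ± 0.13 on the log2 scale. None of 18 sulfotransferases rose and 5 fell. Sult3a1, a female-biased sulfotransferase, had 78.3, 31.9, 26.8 and 53.02 CPM at 0-PFOS and 0.438, 0.759, 1.1 and 0.635 CPM at 10-PFOS, and its near copy Sult3a2 20.7, 6.6, 7.05 and 12.9 CPM at 0-PFOS and 0.219, 0.266, 0.221 and 0.54 CPM at 10-PFOS. Both were near 0 in all treated mice (−6.00 ± 0.69 and −5.20 ± 0.73, adjusted p = 4.0e-07 and 6.0e-06). The estrogen sulfotransferase Sult1e1 had 1.22, 2.84, 8.99 and 3.9 CPM at 0-PFOS and 46.7, 12.3, 27.8 and 0.191 CPM at 10-PFOS, spread over more than 2 orders of magnitude within the treated group, and did not pass (2.35 ± 1.02, adjusted p = 0.075). Without 10-PFOS mouse 4 it did (log2 fold change 2.77, adjusted p = 0.019), but not without 10-PFOS mouse 1 (log2 fold change 1.66, adjusted p = 0.24) or without 0-PFOS mouse 3 (log2 fold change 3.03, adjusted p = 0.052). Of 14 tested carboxylesterases 9 rose and 4 fell. Ces2a rose, with 231 to 276 CPM at 0-PFOS and 1039 to 1298 CPM at 10-PFOS (2.24 ± 0.12, adjusted p = 2.1e-12), whereas Ces3a (−2.43 ± 0.24) and Ces3b (−2.47 ± 0.23), which share reads, fell. The count of genes of glucuronidation that rose was 6 without 0-PFOS mouse 1, 0-PFOS mouse 2 or 10-PFOS mouse 3.

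Uptake carriers at the blood side of the hepatocyte fell, and exporters went both ways. Of 11 Slco and Slc10 carriers none rose and 8 fell (median −0.76). Slco1b2, the main carrier of organic anions, had 885, 781, 976 and 953 CPM at 0-PFOS and 468, 473, 481 and 462 CPM at 10-PFOS, with treated mice tightly grouped below the untreated ones (−0.93 ± 0.11, adjusted p = 5.2e-07). Slc10a1, the bile acid carrier NTCP, fell by 0.54 ± 0.14 (adjusted p = 0.0042). Slco1a4 had 173, 138, 189 and 126 CPM at 0-PFOS and 80.4, 72.7, 69.3 and 124 CPM at 10-PFOS, with mouse 4 just below the untreated range (−0.85 ± 0.19, adjusted p = 9.1e-04). Among 13 Slc22 genes 7 fell and 3 rose. Slc22a26, a female-biased organic anion carrier, had 158, 142, 159 and 197 CPM at 0-PFOS and 1.62, 1.86, 1.95 and 12.4 CPM at 10-PFOS. Mouse 4 was again the highest of the treated mice (−5.19 ± 0.45, adjusted p = 8.9e-09). Of 13 ABC exporters 6 rose and 4 fell. Abcc3, which exports conjugates to the blood, had 309.7, 279.9, 274 and 271 CPM at 0-PFOS and 654, 491, 490.5 and 656 CPM at 10-PFOS (1.01 ± 0.11, adjusted p = 2.9e-07), and Abcg2 rose by 1.51 ± 0.15, while the sterol exporters Abcg5 and Abcg8 fell, with log2 fold changes of −0.65 and −0.69 (adjusted p = 0.0021 and 0.0018). The bile acid enzymes fell in 10 of 18 and rose in 2. Cyp7a1, the rate-limiting enzyme of bile acid synthesis, had 88.4, 74.2, 104 and 112 CPM at 0-PFOS and 12.3, 62.2, 10.4 and 17.7 CPM at 10-PFOS, with 10-PFOS mouse 2 closest to the untreated mice (−1.88 ± 0.46, adjusted p = 0.0023). Cyp8b1, which sets the share of cholic acid, had 341, 222, 249 and 176 CPM at 0-PFOS and 32.4, 80.0, 28.7 and 155 CPM at 10-PFOS (−1.74 ± 0.41, adjusted p = 0.002), and Cyp27a1 378, 376, 375 and 395 CPM at 0-PFOS and 210.2, 226, 212 and 229.9 CPM at 10-PFOS (−0.80 ± 0.10, adjusted p = 1.6e-06). Without 10-PFOS mouse 2 the log2 fold change was −2.80 for Cyp7a1. Without 10-PFOS mouse 4 the log2 fold change was −6.49 for Slc22a26 and −2.38 for Cyp8b1.

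**Figure D2:**
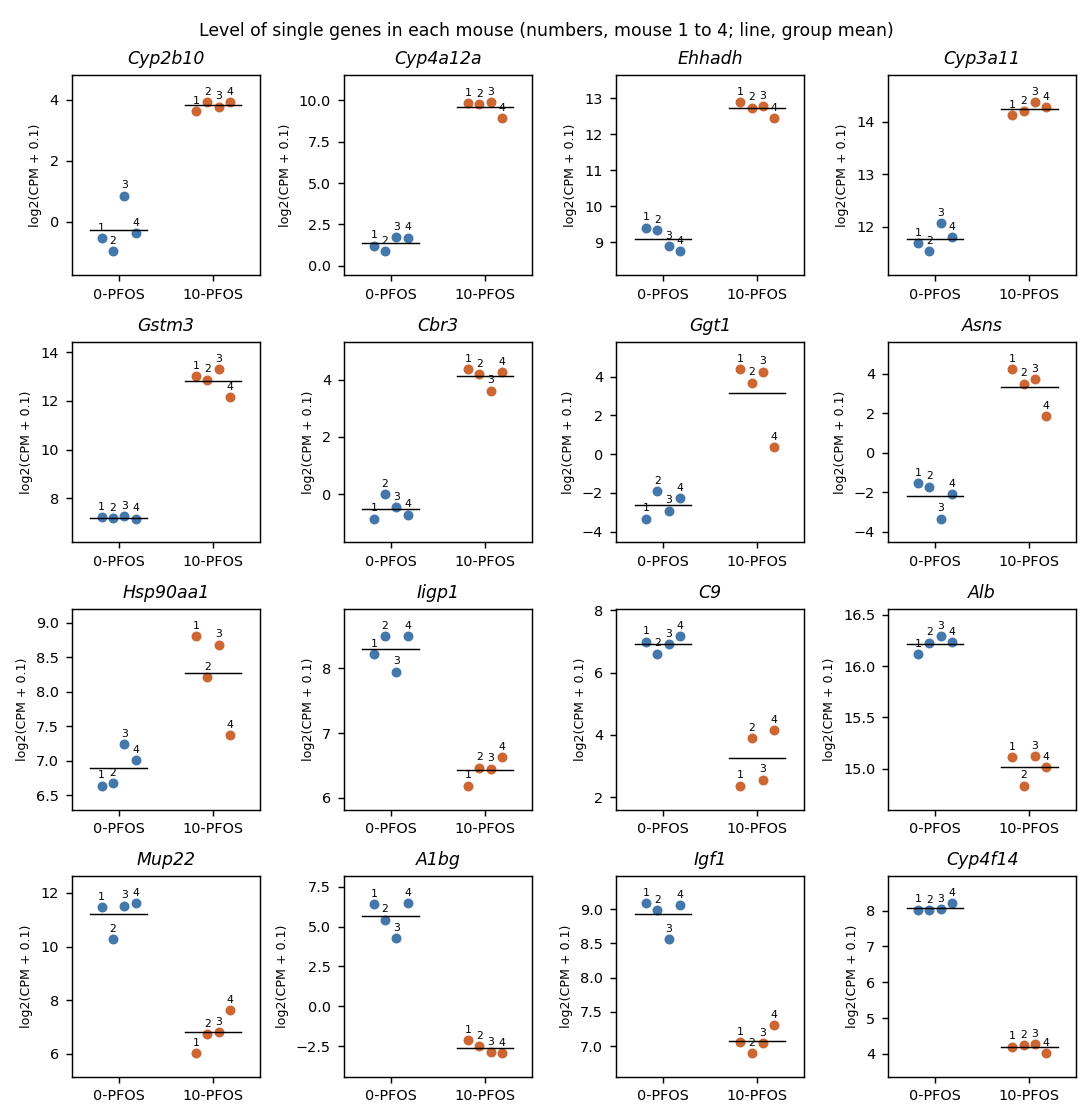
Points are log2(CPM + 0.1) of 16 genes in each of the 4 mice of the 0-PFOS (blue) and 10-PFOS (orange) groups, with the mouse number beside each point and the mean of the group as a line. The 2 groups do not overlap for any of the 16 genes, and mouse 4 of the 10-PFOS group lies nearest to the untreated mice for several, among them Ggt1, Asns and Hsp90aa1.

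Genes of the amino acid stress response under the factor ATF4 rose in 15 of 29 tested and fell in 3, with large rises of genes that make amino acids. Asns, asparagine synthetase, had 0.244, 0.206, 0 and 0.134 CPM at 0-PFOS and 18.7, 11.2, 13.1 and 3.52 CPM at 10-PFOS. Psat1, of serine synthesis, had 0.244, 0.495, 0.264 and 0.214 CPM at 0-PFOS and 17.5, 13.1, 16.6 and 6.03 CPM at 10-PFOS. Both were close to 0 without PFOS, and mouse 4 was the lowest treated mouse for each (6.33 ± 0.66, adjusted p = 9.7e-08 for Asns and 5.47 ± 0.43, adjusted p = 1.6e-09 for Psat1). Trib3, which restrains ATF4 and insulin signals, had 7.42, 3.38, 3.43 and 4.6 CPM at 0-PFOS and 34.1, 51.1, 30.1 and 47.6 CPM at 10-PFOS (3.11 ± 0.36, adjusted p = 4.0e-07), and Gdf15, a stress hormone, 6.34, 4.16, 4.91 and 12.0 CPM at 0-PFOS and 28.7, 43.3, 32.0 and 50.01 CPM at 10-PFOS (2.49 ± 0.48, adjusted p = 2.7e-04). Cbs, of cysteine synthesis, fell by 1.26 ± 0.13. Enzymes that charge tRNA with amino acids rose in 16 of 20 with no fall (median 0.56), by modest amounts. Gars had 26.6, 26.0, 29.5 and 28.6 CPM at 0-PFOS and 66.0, 58.4, 63.1 and 46.3 CPM at 10-PFOS (1.08 ± 0.10, adjusted p = 2.0e-08) and Sars 28.4, 29.3, 29.6 and 33.7 CPM at 0-PFOS and 64.9, 67.8, 62.4 and 50.4 CPM at 10-PFOS (1.02 ± 0.12, adjusted p = 4.8e-07), each with mouse 4 lowest of the treated mice. In the unfolded protein response of the endoplasmic reticulum 3 of 25 rose and 4 fell, below the shares of all tested genes. Hspa5, its chaperone BiP, had 249, 205, 221 and 177 CPM at 0-PFOS and 289, 188, 225 and 146 CPM at 10-PFOS (−0.01 ± 0.20, adjusted p = 0.99). The count of ATF4 genes that fell was 1 without 0-PFOS mouse 3, 10-PFOS mouse 2 or 10-PFOS mouse 4. The count of genes of the unfolded protein response that fell was 2 without 0-PFOS mouse 3 or 0-PFOS mouse 4.

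The letters TGATGNAAT, an element that ATF4 and CHOP bind, were in the promoters of 3 of 13 matched tRNA synthetase genes (Gars, Aars and Iars), of 1 of 26 matched ATF4 genes (Fgf21), and of 1.08% of all genes with a promoter. The match in Iars, which rose by 0.91 ± 0.14 (adjusted p = 2.1e-05), was not wholly before the start. The windows of the other members are shown, of which Gars rose and Aars and Fgf21 did not pass.
Gars: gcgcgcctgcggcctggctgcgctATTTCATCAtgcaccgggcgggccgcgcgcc
Aars: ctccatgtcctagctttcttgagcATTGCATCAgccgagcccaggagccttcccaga
Fgf21: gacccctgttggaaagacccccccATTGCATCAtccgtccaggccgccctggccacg
Capitals mark the match, here on the opposite strand in each, and the windows lie at chr6:55037946-55038000 (plus strand), chr8:111033705-111033761 (plus strand) and chr7:45615598-45615654 (minus strand). Aars, the alanine enzyme, had 116, 114, 114 and 112 CPM at 0-PFOS and 151, 124, 137 and 83.5 CPM at 10-PFOS, with overlap (0.12 ± 0.15, adjusted p = 0.57).

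Genes of protein making and removal rose by small amounts. Of 32 proteasome subunits 31 rose (median 0.68), among them Psmb5, a catalytic subunit, with 28.5, 29.0, 29.5 and 28.4 CPM at 0-PFOS and 58.2, 62.0, 65.9 and 56.5 CPM at 10-PFOS (1.07 ± 0.11, adjusted p = 1.0e-07) and Psmd4, a ubiquitin receptor (0.96 ± 0.10). The immunoproteasome subunit Psmb8 went the other way, with 18.6, 24.9, 20.5 and 23.3 CPM at 0-PFOS and 2.85, 5.92, 4.45 and 7.62 CPM at 10-PFOS (−2.06 ± 0.23, adjusted p = 2.9e-07). Cytosolic ribosomal proteins rose in 29 of 33 (median 0.60), for example Rpl4 with 347 to 385 CPM at 0-PFOS and 569 to 732 CPM at 10-PFOS (0.84 ± 0.10, adjusted p = 5.0e-07). Of 36 nuclear genes of oxidative phosphorylation 14 rose with no fall (median 0.20). Heat shock proteins rose in 12 of 18. Hspd1, the mitochondrial chaperonin, had 331, 278, 318 and 335 CPM at 0-PFOS and 636, 589.7, 697 and 615 CPM at 10-PFOS (1.01 ± 0.10, adjusted p = 6.8e-08), and Hsp90aa1, the stress-induced Hsp90, 99.5, 102, 151 and 129 CPM at 0-PFOS and 448, 296, 411 and 166 CPM at 10-PFOS, with mouse 4 close to the untreated mice (1.46 ± 0.25, adjusted p = 6.4e-05). Myc, a transcription factor of cell growth, had 4.88, 2.93, 4.18 and 2.41 CPM at 0-PFOS and 30.0, 32.7, 24.5 and 29.3 CPM at 10-PFOS and was 8.1 times higher (3.02 ± 0.24, adjusted p = 2.7e-09), and Gadd45a, of the DNA damage response, had 1.5, 0.453, 0.198 and 0.722 CPM at 0-PFOS and 8.01, 9.26, 8.06 and 8.54 CPM at 10-PFOS (3.55 ± 0.36, adjusted p = 5.7e-08). Of 22 p53 targets and growth genes 11 rose and 3 fell, and of 26 cell cycle genes 4 rose and 3 fell. Without 0-PFOS mouse 1 the log2 fold change was 4.19 for Gadd45a. The count of cell cycle genes that rose was 2 without 0-PFOS mouse 1, 0-PFOS mouse 2, 0-PFOS mouse 3 or 0-PFOS mouse 4 and 7 without 10-PFOS mouse 1 and 1 without 10-PFOS mouse 2. The count of genes of oxidative phosphorylation that rose was 9 without 0-PFOS mouse 4 and 8 without 10-PFOS mouse 3.

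Genes of the interferon response and of antigen presentation fell. Of 37 tested interferon response genes 34 fell and none rose (median −1.51, against −0.0142 over all tested genes). Iigp1, a GTPase that interferon γ switches on, had 298, 362, 247 and 361 CPM at 0-PFOS and 72.8, 88.3, 87.5 and 98.5 CPM at 10-PFOS (−1.87 ± 0.23, adjusted p = 9.5e-07). Isg15, a ubiquitin-like protein of the antiviral response, had 7.25, 6.22, 7.05 and 7.73 CPM at 0-PFOS and 0.613, 3.26, 0.957 and 1.49 CPM at 10-PFOS, with mouse 2 the highest of the treated mice (−2.15 ± 0.31, adjusted p = 9.2e-06), and Gbp6 fell by 3.18 ± 0.47. Of 18 genes of MHC class I and its peptide supply 16 fell (median −1.24). H2-K1, a class I heavy chain, had 915, 1032, 970.0 and 956 CPM at 0-PFOS and 227, 359.8, 273 and 412 CPM at 10-PFOS (−1.61 ± 0.14, adjusted p = 8.9e-09), and its partner B2m 888, 932, 1009 and 939 CPM at 0-PFOS and 369, 517, 439 and 513 CPM at 10-PFOS (−1.04 ± 0.11, adjusted p = 1.3e-07). All 8 class II genes fell (median −1.37), among them Cd74, the invariant chain, with 63.2, 155, 101 and 105.3 CPM at 0-PFOS and 35.8, 29.6, 45.3 and 56.7 CPM at 10-PFOS (−1.34 ± 0.25, adjusted p = 1.7e-04). Without 10-PFOS mouse 2 the log2 fold change was −2.76 for Isg15.

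Markers of several cell types moved with these groups. Of 15 markers of Kupffer cells, the macrophages of the liver, 13 fell and none rose, and their sum was 430.5 to 516.2 CPM at 0-PFOS and 144.1 to 237.3 CPM at 10-PFOS. Clec4f, which in liver only Kupffer cells make, had 87.5, 98.4, 94.5 and 88.7 CPM at 0-PFOS and 27.3, 43.6, 36.7 and 40.7 CPM at 10-PFOS (−1.31 ± 0.14, adjusted p = 2.2e-07). In bulk tissue fewer cells of a type and less RNA per cell cannot be told apart. Markers of red blood cells fell in 4 of 5 tested, their sum being 577.2 to 975.2 CPM at 0-PFOS and 120.2 to 444.9 CPM at 10-PFOS, with Hbb-bs at 197, 154, 131 and 232 CPM at 0-PFOS and 28.9, 97.7, 43.4 and 78.0 CPM at 10-PFOS (−1.53 ± 0.33, adjusted p = 8.1e-04). Sinusoidal endothelial markers fell in 8 of 16 and rose in 1 (sum 401.5 to 531.7 and 316.9 to 421.5 CPM) and stellate cell markers fell in 7 of 15 (299.4 to 427.1 and 200.9 to 271.3 CPM). Of the markers of T and NK cells 2 of 18 passed the filter on low counts, of monocytes and neutrophils 4 of 12, of B cells 3 of 10 and of dendritic cells 1 of 8, and the sums of these lists stayed under 16 CPM in every mouse. Mpo, Elane and Camp, of neutrophils, had no count in any of the 8 mice. Markers of bile duct and progenitor cells rose in 5 of 8 tested. Krt23, a keratin, had 1.5, 0.824, 2.7 and 0.8288 CPM at 0-PFOS and 39.8, 39.0, 38.8 and 42.5 CPM at 10-PFOS (4.77 ± 0.44, adjusted p = 1.4e-08), while Epcam and Spp1, other markers of the list, had 0.438 to 1.24 and 14.1 to 22.4 CPM with PFOS and 0.412 to 1.12 and 16.0 to 22.8 CPM without. The part of cell composition in the falls of the immune genes was not tested. The count of endothelial markers that fell was 5 without 10-PFOS mouse 1. The count of stellate cell markers that fell was 4 without 0-PFOS mouse 2.

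Genes of secreted hepatocyte proteins fell more often than they rose. Of 25 complement genes 22 fell (median −1.19), of 26 genes of coagulation 23 (median −0.69), of 26 other plasma proteins 19 (median −0.68) and of 23 apolipoproteins and lipoprotein genes 15, with 2 rising. C9, of the pore that complement forms, had 128, 97.6, 121 and 145 CPM at 0-PFOS and 5.08, 14.7, 5.81 and 17.8 CPM at 10-PFOS (−3.49 ± 0.33, adjusted p = 2.9e-08). Klkb1, plasma prekallikrein, had 281, 275, 277 and 281 CPM at 0-PFOS and 118, 107, 122 and 139 CPM at 10-PFOS, 4 values close together in each group (−1.20 ± 0.10, adjusted p = 3.5e-09). Alb, serum albumin, had 71047, 76695, 80198 and 76942 CPM at 0-PFOS and 35523, 29246, 35646 and 33079 CPM at 10-PFOS. Of all genes called it had the largest fall in CPM, a measure that favours long and abundant transcripts, and the treated mice held 2.28 times less than the untreated ones (−1.19 ± 0.17, adjusted p = 8.0e-06). Trf, the iron carrier transferrin, had 12007, 13110.0, 12611 and 13619 CPM at 0-PFOS and 6159.9, 6345, 6159.5 and 6015 CPM at 10-PFOS (−1.06 ± 0.12, adjusted p = 3.7e-07), Ahsg, fetuin-A, 5132, 4922, 4594 and 5439 CPM at 0-PFOS and 1560.1, 1738, 1642 and 1887 CPM at 10-PFOS (−1.56 ± 0.16, adjusted p = 1.3e-07) and Apoa1, the main protein of HDL, 6293, 6256, 4471 and 5555 CPM at 0-PFOS and 2051, 2415, 2524 and 2236 CPM at 10-PFOS (−1.29 ± 0.19, adjusted p = 9.5e-06). Of the 10 hepatocyte markers, Alb and Apoa1 among them, 6 fell and none rose. Apof, a lipid transfer inhibitor, had 435, 388, 419 and 431 CPM at 0-PFOS and 111, 133, 122 and 99.5 CPM at 10-PFOS, a narrow spread in both groups (−1.85 ± 0.10, adjusted p = 3.5e-12). The summed fall of the hepatocyte markers was mostly that of Alb, and its part in these counts was not tested. Acute phase proteins were divided, with 10 of 24 lower and 2 higher. Serpina3k, a protease inhibitor, fell, with 3099 to 5175 CPM at 0-PFOS and 539 to 1178 CPM at 10-PFOS (−2.13 ± 0.36, adjusted p = 7.0e-05), whereas Hp, haptoglobin, rose, with 1459 to 1828 CPM at 0-PFOS and 1955 to 2515 CPM at 10-PFOS (0.50 ± 0.16, adjusted p = 0.015).

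Genes that depend on sex and growth hormone were among the largest falls. The male-biased Cyp4a12a and Cyp4a12b, described above, instead had the largest rises among genes of at least 10 CPM without overlap. All 22 tested major urinary protein genes, whose products carry pheromones, fell, with a median of −4.33. Mup22 had 2844, 1247, 2949 and 3141 CPM at 0-PFOS and 65.5, 106, 112 and 198 CPM at 10-PFOS. Mouse 2 was lowest of the untreated mice and mouse 4 highest of the treated ones (−4.40 ± 0.58, adjusted p = 2.5e-06). The near-identical Mup1, Mup2, Mup7, Mup8, Mup10, Mup11, Mup13, Mup14, Mup16, Mup17 and Mup18, which share its reads and are no independent evidence, fell, with log2 fold changes of −4.30 to −4.39. A1bg, a plasma protein gene that female mice use, had 83.8, 43.2, 19.3 and 88.1 CPM at 0-PFOS and 0.131, 0.0759, 0.0368 and 0.0318 CPM at 10-PFOS. It had the largest fall among genes of at least 10 CPM without overlap, and no treated mouse exceeded 0.131 CPM (−9.76 ± 1.36, adjusted p = 5.5e-06). Ntrk2, a neurotrophin receptor higher in female liver, had 25.5, 17.8, 17.2 and 8.5 CPM at 0-PFOS and 0.394, 0.114, 0.0368 and 0.0635 CPM at 10-PFOS (−6.90 ± 0.59, adjusted p = 7.4e-09), and Enho, which encodes the peptide adropin, 24.0, 25.5, 26.1 and 26.9 CPM at 0-PFOS and 0.744, 0.797, 0.773 and 2.03 CPM at 10-PFOS (−4.54 ± 0.41, adjusted p = 1.4e-08). Of 36 female-biased genes 14 rose and 14 fell, and of 28 tested male-biased genes 7 rose and 13 fell, the 2 lists sharing members with the P450, carrier and urinary protein lists above. The female-biased rises include the deleted Cyp2b9 and Cyp2b13, and Cyp3a16, Cyp3a41a, Cyp3a41b and Cyp3a44, which share reads. Falls that share reads include Cyp2c40 with Cyp2c69 among female-biased genes and Mup genes among male-biased ones. These counts are thus not of independent genes. In the growth hormone axis none of 16 rose and 7 fell. Igf1, its main product in liver, had 543, 507, 379 and 534 CPM at 0-PFOS and 133, 119.7, 132 and 158 CPM at 10-PFOS (−1.85 ± 0.14, adjusted p = 1.0e-09), and the hormone receptor Ghr 378, 355, 416 and 330.4 CPM at 0-PFOS and 152, 140.2, 157 and 113 CPM at 10-PFOS (−1.39 ± 0.12, adjusted p = 7.9e-09). Stat5b, the factor that carries the signal, fell by 1.16 ± 0.12 (adjusted p = 8.5e-08), and Socs2, a target of it, by 2.12 ± 0.45 (adjusted p = 6.7e-04). Cux2, a factor of female liver, had 21.99, 24.1, 2.19 and 18.2 CPM at 0-PFOS and 0.394, 0.569, 0.294 and 20.1 CPM at 10-PFOS. Treated mice 1 to 3 were below 1 CPM and mouse 4 in the untreated range, and the gene did not pass (−1.61 ± 0.97, adjusted p = 0.2). It passed without that mouse (log2 fold change −5.29, adjusted p = 2.2e-04) and with the replicate number as a block (−2.64, adjusted p = 0.022). Without 10-PFOS mouse 1 the log2 fold change was −7.88 for Ntrk2.

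**Figure D3:**
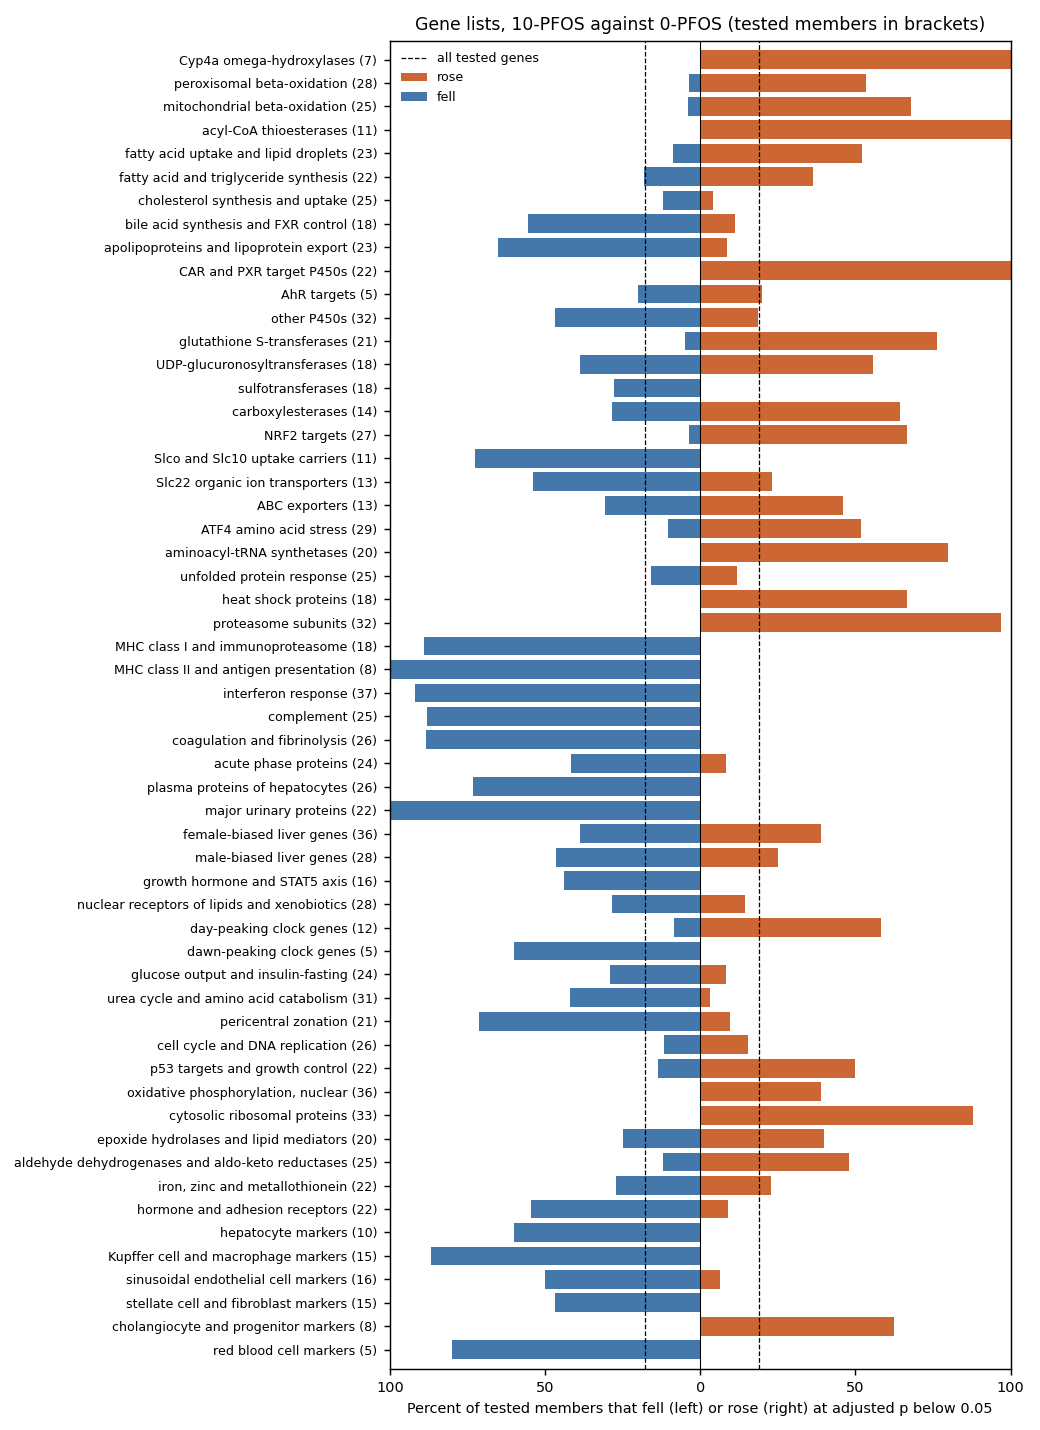
Bars give, for each list with at least 5 tested members (number in brackets), the percent of tested members that rose (right, orange) or fell (left, blue) at 10-PFOS at an adjusted p below 0.05. Dashed lines mark the 19.1% and 17.8% of all tested genes. The bars of Cyp4a, CAR and PXR target, thioesterase and proteasome genes exceed them on the right. Those of immune, plasma and urinary protein genes do so on the left.

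Genes of the zone around the central vein, where ammonia is caught and foreign compounds are oxidised, fell in 15 of 21 and rose in 2 (median −0.94). Glul, glutamine synthetase, had 444, 466, 462 and 548 CPM at 0-PFOS and 79.8, 167, 162 and 187 CPM at 10-PFOS (−1.69 ± 0.25, adjusted p = 1.1e-05), and Lgr5, a receptor gene of that zone, 4.91, 4.12, 6.16 and 6.18 CPM at 0-PFOS and 0.525, 0.493, 0.294 and 0.73 CPM at 10-PFOS (−3.38 ± 0.28, adjusted p = 4.4e-09). Cyp2a5 rose instead, with 686, 467, 641 and 564 CPM at 0-PFOS and 3069, 2831, 2619 and 3903 CPM at 10-PFOS (2.40 ± 0.32, adjusted p = 2.7e-06). In the making of glucose 7 of 24 genes fell and 2 rose. G6pc, glucose-6-phosphatase, had 429.6, 453, 417 and 272 CPM at 0-PFOS and 52.2, 80.0, 99.9 and 102 CPM at 10-PFOS (−2.23 ± 0.31, adjusted p = 5.6e-06). Pck1, which starts the pathway, had 1192, 2008, 2634 and 1781 CPM at 0-PFOS and 85.1, 224, 64.5 and 774 CPM at 10-PFOS, with mouse 4 highest of the treated mice (−2.73 ± 0.55, adjusted p = 4.1e-04). In the urea cycle and amino acid breakdown 13 of 31 fell and 1 rose, among them Ass1 of the cycle (1584 to 2617 against 887 to 1111 CPM, −1.08 ± 0.21, adjusted p = 2.2e-04). Of 22 hormone and adhesion receptors 12 fell and 2 rose. Egfr, the EGF receptor, had 154, 103, 104.6 and 255 CPM at 0-PFOS and 32.0, 26.8, 33.8 and 28.6 CPM at 10-PFOS (−2.35 ± 0.27, adjusted p = 3.5e-07), and Avpr1a, the vasopressin receptor, 41.0, 37.7, 36.5 and 41.5 CPM at 0-PFOS and 3.81, 4.44, 2.87 and 3.75 CPM at 10-PFOS (−3.40 ± 0.29, adjusted p = 7.5e-09). Without 10-PFOS mouse 4 the log2 fold change was −3.93 for Pck1.

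Clock genes moved in 2 directions. Of 12 genes that peak by day 7 rose and 1 fell (median 1.20), and of 5 that peak near dawn 3 fell and none rose (median −1.79). Dbp, an output factor of the clock, had 9.17, 1.65, 1.89 and 5.99 CPM at 0-PFOS and 24.1, 23.03, 15.1 and 35.5 CPM at 10-PFOS (2.38 ± 0.73, adjusted p = 0.013), and Arntl, which encodes BMAL1, 17.5, 19.7, 18.6 and 12.0 CPM at 0-PFOS and 4.47, 4.44, 5.7 and 2.6 CPM at 10-PFOS (−1.98 ± 0.53, adjusted p = 0.005). No source used here gives the hour at which each mouse was killed, so hour and treatment cannot be told apart for these genes. Iron genes were divided as well, with 5 of 22 rising and 6 falling. Tfrc, the transferrin receptor, had 5.3, 3.96, 10.7 and 6.34 CPM at 0-PFOS and 94.7, 38.5, 59.2 and 24.5 CPM at 10-PFOS (3.04 ± 0.46, adjusted p = 1.8e-05), and Slc39a5, a zinc carrier, 1.99, 4.08, 6.85 and 4.65 CPM at 0-PFOS and 52.7, 67.0, 68.6 and 38.8 CPM at 10-PFOS (3.69 ± 0.32, adjusted p = 7.5e-09). A few of the named rises belonged to none of the lists. Treh, trehalase, had 0.0349, 0.0824, 0.329 and 0.455 CPM at 0-PFOS and 15.5, 11.6, 15.8 and 3.59 CPM at 10-PFOS, and mouse 4 was the lowest treated mouse (5.60 ± 0.61, adjusted p = 2.0e-07). Ly6d, a surface protein gene, had 1.01, 1.24, 0.89 and 1.04 CPM at 0-PFOS and 23.5, 69.3, 36.0 and 21.8 CPM at 10-PFOS (5.17 ± 0.39, adjusted p = 1.0e-09), and Elapor1, of endosomes and lysosomes, 1.05, 0.66, 0.593 and 0.882 CPM at 0-PFOS and 24.6, 24.5, 19.0 and 28.7 CPM at 10-PFOS (4.92 ± 0.31, adjusted p = 4.6e-11). Without 0-PFOS mouse 4 the log2 fold change was 6.22 for Treh. The count of iron and zinc genes that fell was 3 without 10-PFOS mouse 3.

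**Figure D4:**
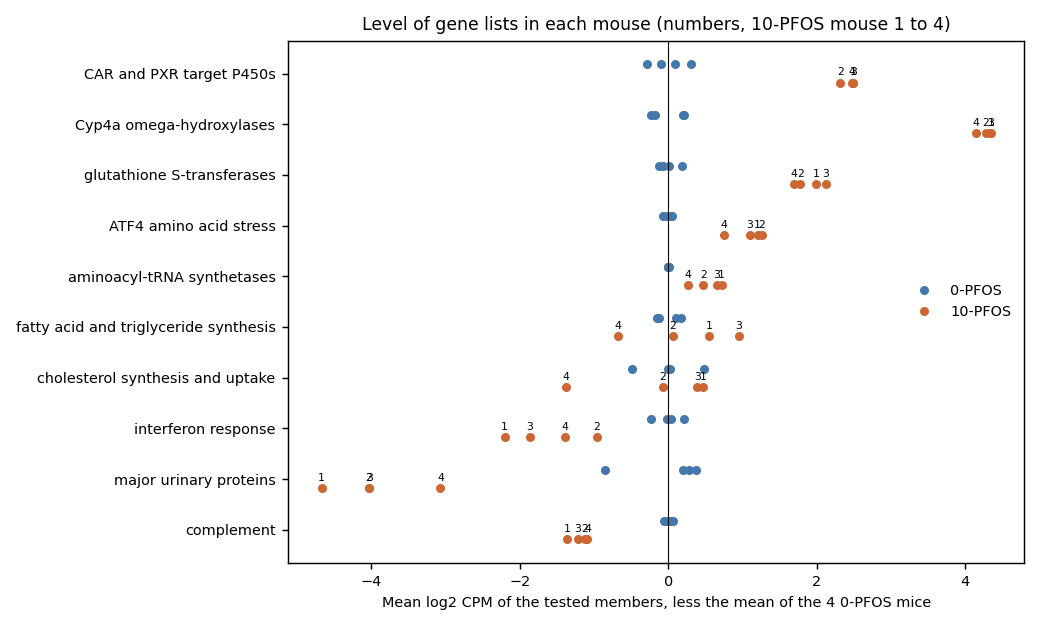
Points give, for 10 lists, the mean log2 CPM of the tested members in each mouse, less the mean of the 4 untreated mice (0-PFOS blue, 10-PFOS orange, numbered by mouse). Treated mice lie apart from untreated ones for the P450, glutathione, complement, interferon and urinary protein lists, but spread over both sides of 0 for fat and cholesterol synthesis, where mouse 4 is the lowest.

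At 1-PFOS few genes passed in the same genotype, where 92 differed from the same 4 untreated mice at an adjusted p below 0.05 (0.697% of those tested), 24 with a log2 fold change above 1 and 13 below −1. Since the doses share their untreated mice, their values are given side by side only. Cyp4a12a changed by 4.01 ± 0.31 at 1-PFOS and by 8.27 ± 0.37 at 10-PFOS, Cyp2c55 by 2.09 ± 0.27 and 6.55 ± 0.32, Cyp2c29 by 1.54 ± 0.13 and 2.86 ± 0.14, and Krt23 by 2.86 ± 0.41 and 4.77 ± 0.44, all called at both doses. Cyp4a genes rose in 7 of 7 and genes of the CAR and PXR target list in 12 of 22 at 1-PFOS. Glutathione S-transferases rose in 1 of 21 and NRF2 targets in 0 of 27. Gstm3 was at 0.77 ± 0.28 (adjusted p = 0.21), Abcc4 at 0.65 ± 0.27 (adjusted p = 0.27) and Asns at 0.85 ± 0.73 (adjusted p = 0.6), none of which passed. Interferon genes fell in 0 of 37 at 1-PFOS and urinary protein genes in 0 of 22, where Mup22 was at 0.92 ± 0.50 (adjusted p = 0.4). Apoa1 fell at both doses, with log2 fold changes of −0.87 ± 0.19 at 1-PFOS and −1.29 ± 0.19 at 10-PFOS.

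The response was also set beside that of hCYP2B6-Tg females, which share no mouse with these. Of the 565 genes called higher in Cyp2b-null females 487 (86.2%) rose in hCYP2B6-Tg females at an adjusted p below 0.05, and of the 826 called lower 714 (86.4%) fell, while none was called in the opposite direction. Of all 13193 genes tested, 6175 passed in hCYP2B6-Tg females, either way. Some lists differed. Of 25 cholesterol genes 3 fell here and 18 in hCYP2B6-Tg females, with 1 rising in each. Of 12 day-peaking clock genes 7 rose here and 0 there, with 1 falling in each. These differences of lists were not tested. The interaction of genotype and 10-PFOS called 0 of 13193 genes (0.00%, edgeR quasi-likelihood test), with 1357 at an unadjusted p below 0.05 and a lowest adjusted p of 0.156. DESeq2 called 40 and edgeR's likelihood ratio test 37, and without 10-PFOS mouse 4 of the Cyp2b-null group the quasi-likelihood test called 22. Differences of a gene between the genotypes are thus given as estimates. By the rule of lowest p among the genes described, Acox2, an oxidase of branched fatty acids and bile acid precursors, rose by 0.81 ± 0.10 here and by 1.52 ± 0.11 in hCYP2B6-Tg females (difference 0.71 ± 0.15, adjusted p = 0.16). Gsr rose by 1.37 ± 0.11 and 1.98 ± 0.12 (difference 0.61 ± 0.16) and the flavoprotein dehydrogenase Etfdh by 0.34 ± 0.09 and 0.80 ± 0.09 (difference 0.46 ± 0.13). G6pc was at −2.23 ± 0.31 and −0.66 ± 0.30 (difference 1.57 ± 0.42) and the clock repressor Cry1 at −1.42 ± 0.25 and −0.15 ± 0.24 (difference 1.27 ± 0.34), these 4 with an adjusted interaction p of at least 0.25.

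**Figure D5:**
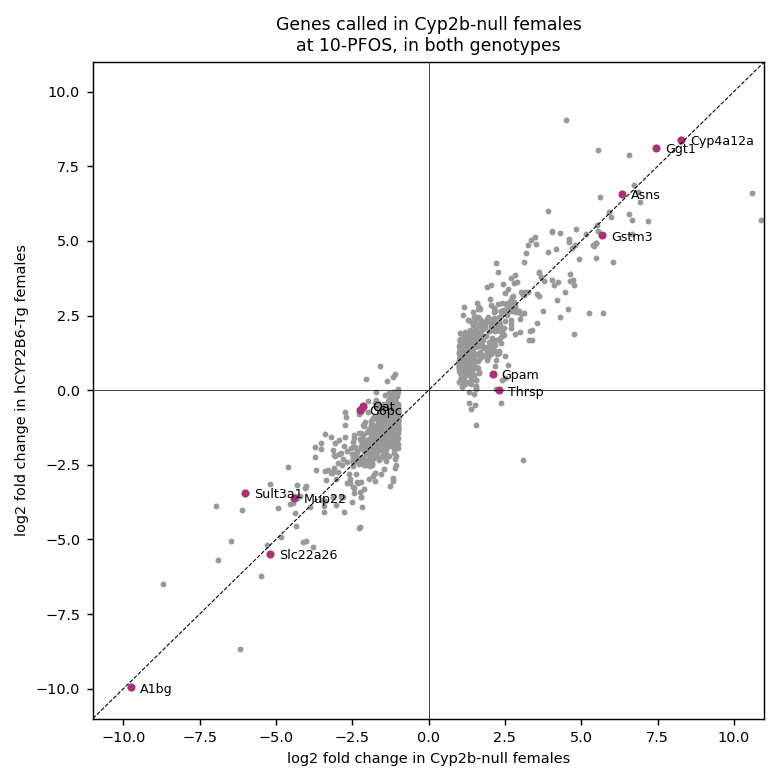
Each point is 1 of the 1391 genes called in Cyp2b-null females, with its log2 fold change at 10-PFOS in Cyp2b-null females on the horizontal axis and in hCYP2B6-Tg females on the vertical axis, and the dashed line marks equal change. Most points follow the line, while Thrsp, Gpam, G6pc and Oat lie closer to 0 in hCYP2B6-Tg females.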

How the data were processed

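Liver messenger RNA of each mouse was sequenced in paired ends. The authors trimmed and checked the reads (Trim Galore, FastQC), used RSEM and featureCounts with the mouse build GRCm39 and deposited raw counts per gene for all 48 mice, with versions not given in the sources used here. Of the 40872 rows of the deposited count table, 25 were split across lines and left out (0.0432% of counts, among them Dst, Huwe1, Mycbp2, Neb, Syne1 and Ttn). Between 90.6% and 91.3% of the nonzero counts of each library of the 8 mice were even numbers, so 2 counts may stand for 1 fragment and the totals may overstate the depth. The counts do not keep strand or position, so near-identical, overlapping and antisense genes are uncertain. The deposited fold changes and p-values of the authors' own comparisons were not used.

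The 24 female libraries (6 groups of 4) were fitted together with edgeR 4.0.16 (R 4.3.3): TMM normalisation, genes with more than 1 CPM in at least 3 of 4 mice of 1 or more groups, and the quasi-likelihood F test with Benjamini-Hochberg adjustment over all 13193 genes. CPM were computed from the deposited counts with library sizes scaled by TMM, and standard errors are the log2 fold change divided by the square root of F. Calls needed both an adjusted p under 0.05 and a change of more than 1 on the log2 scale. Nothing in the labels beyond the mouse number tells separate cohorts apart, and no batch is given. Alternatives were size factors of DESeq2, DESeq2 1.42.0 itself, edgeR's likelihood ratio test, other filters, fewer groups, the replicate number as a block, and each mouse left out.

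Genes named were the 15 largest rises and 15 largest falls among genes called whose groups did not overlap and whose higher mean reached 10 CPM (predicted genes left out), the 10 called genes with the largest CPM difference in each direction, members of 53 gene lists and 11 cell type marker lists by adjusted p or known role, the deleted Cyp2b genes, and the 5 with the lowest interaction p; a few genes that this rule takes in are not reported here. The members and lists were chosen with earlier results of these data known. Promoter sequences are those of RefSeq, build GRCm38.p6, and were used for letters only. Only the main comparison of treated and untreated mice with edgeR's quasi-likelihood test was tried on simulated data. The alternatives, the interaction and the lower dose were not.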

Additional observations from a re-analysis of the deposited data

Results flagged for a closer look

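In 354 groups of 4 mice tested (CPM of 174 genes described, and 3 library measures, in each dose group), 23 (6.5%) had 1 mouse whose gap to the nearest other, divided by the range of the group, exceeded Dixon's 95% critical value for 4 samples. Chance alone gives about 1 in 20 groups.

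Mouse 2 of the 0-PFOS group stood apart as the lowest for Mup22 (1247 CPM, gap over range 0.843), Mup18 (1245 CPM, gap over range 0.843) and Mup11 (1218 CPM, gap over range 0.848). Mouse 3 of the 0-PFOS group stood apart as the highest for Cyp2c55 (8.34 CPM, gap over range 0.918), Gsta1 (28.0 CPM, gap over range 0.891), Gsta2 (34.3 CPM, gap over range 0.924), Cyp2b13 (0.659 CPM, gap over range 0.858), Cyp2b9 (3.49 CPM, gap over range 0.849), Ephx1 (389 CPM, gap over range 0.836) and Vldlr (16.3 CPM, gap over range 0.888). Mouse 3 of the 0-PFOS group stood apart as the lowest for Hadhb (182 CPM, gap over range 0.916). Mouse 4 of the 0-PFOS group stood apart as the highest for Cyp27a1 (395 CPM, gap over range 0.838), Cyp4f14 (295 CPM, gap over range 0.868) and Hp (1828 CPM, gap over range 0.87). Mouse 2 of the 10-PFOS group stood apart as the highest for Cyp7a1 (62.2 CPM, gap over range 0.86). Mouse 2 of the 10-PFOS group stood apart as the lowest for Nqo1 (22.3 CPM, gap over range 0.881). Mouse 3 of the 10-PFOS group stood apart as the lowest for Cyp2b13 (4.38 CPM, gap over range 0.845). Mouse 4 of the 10-PFOS group stood apart as the highest for Sult3a2 (0.54 CPM, gap over range 0.854), Slc22a26 (12.4 CPM, gap over range 0.969), Enho (2.03 CPM, gap over range 0.959), Cux2 (20.1 CPM, gap over range 0.986), Slc27a5 (592 CPM, gap over range 0.929) and Socs2 (16.0 CPM, gap over range 0.92). Several of these genes share reads (Gsta1 with Gsta2, the Mup genes with each other) and so are not separate observations. The mice that stood apart most often were 0-PFOS mouse 3 and 10-PFOS mouse 4. No described gene differed between the genotypes at an adjusted interaction p below 0.05, and none had groups apart in opposite directions in the 2 genotypes.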

How the results depend on the processing

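The 1391 genes called between 10-PFOS and 0-PFOS were 1386 with the size factors of DESeq2 (1376 shared), 1408 with DESeq2 (1375 shared), 1415 with the likelihood ratio test (1389 shared), 1607 of 24388 tested with no filter (1359 shared) and 1359 with only the groups compared (1326 shared). More than 10 CPM left 7885 genes to test and 723 calls (680 shared), 283 higher and 440 lower, and no fold threshold gave 4867. Leaving out 1 mouse at a time gave 1223 to 1516 calls, 521 to 616 higher and 684 to 900 lower. The interaction of genotype and dose, 0 in the test reported, had 40 calls with DESeq2 and 37 with the likelihood ratio test, and 0 to 22 with 1 mouse left out, the 22 without 10-PFOS mouse 4 of the Cyp2b-null group. The cause of these differences was not tested. The replicate number as a block gave 1404 calls (1364 shared), but same-numbered mice did not deviate together (correlations of −0.0335 to 0.1065), so the numbers were not taken as pairs. No alternative that gave a value for a described gene that passed turned its direction or took its adjusted p to 0.05 or above. Some described genes had a value under 14 of the 15 alternatives only, among them Cyp2b13, Cyp2b19, Cyp2b23, Gpx2, Isg15 and Slc22a26. Of the genes that did not pass, Epcam, Hspa5 and Spp1 had both signs. The fold threshold of 1 on the log2 scale was no longer met, under 1 or more alternatives, by Abcc3, Acaca, Ass1, B2m, Elovl5, Hspd1 and Sars, whose values nearest 0 were 0.95 for Abcc3 and −0.90 for Elovl5 (both without 10-PFOS mouse 4), 0.92 for Acaca (without 10-PFOS mouse 3), −0.94 for Ass1 (without 0-PFOS mouse 3), −0.94 for B2m (without 10-PFOS mouse 1), and 0.95 for Hspd1 and 0.96 for Sars (both with the filter at 10 CPM). Of those that did not pass, Cux2 passed with the block (adjusted p = 0.022), Gclm with DESeq2 (adjusted p = 0.037), and Cyp1a1, Fgf21, Nr1i2 and Nr1i3 in an edgeR quasi-likelihood fit of only the groups compared (adjusted p = 0.045, 0.023, 0.036 and 0.035). In that fit 16 acute phase genes fell rather than 10, and the filter at 10 CPM left 20 interferon genes, 5 class II genes and 3 day-peaking clock genes with a change. List counts of 1 or 2 moved by 1 or 2 under several alternatives. With 4 mice a group, genes under 1 CPM could seldom be tested.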

Other observations

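Pnliprp1, a lipase gene of the pancreas, had no count in any untreated mouse and 3.85, 2.5, 4.2 and 3.49 CPM in the 10-PFOS mice, at least 283-fold higher than 3 counts over the untreated group (0.0124 CPM) would give (adjusted p = 5.8e-07, edgeR quasi-likelihood test). It was chosen after its values were seen. Of the 12 markers of adipocytes, gallbladder and pancreas, 9 had no count in any of the 8 mice and 1 passed the filter on low counts. Themis, the T cell marker that rose, had 0.593, 0.618, 0.527 and 0.374 CPM at 0-PFOS and 10.2, 9.68, 8.35 and 3.18 CPM at 10-PFOS (3.90 ± 0.51, adjusted p = 2.3e-06). The 18 markers of T and NK cells together, Themis included, summed to 6.187 to 10.57 CPM at 0-PFOS and 8.065 to 13.24 CPM at 10-PFOS. Themis alone was 0.374 to 0.618 CPM of these sums at 0-PFOS and 3.18 to 10.2 CPM at 10-PFOS. The other marker tested did not pass (log2 fold change −0.99). With no filter on low counts, 3 of the 18 markers fell and 1 rose. Among members too low to test, Cd3d and Cd4 were lower in every treated mouse than in any untreated one, whereas Cd8b1 and Lck overlapped. Oat, ornithine aminotransferase of the zone around the central vein, had 663, 314, 897 and 723 CPM at 0-PFOS and 98.5, 208, 102 and 182 CPM at 10-PFOS (−2.14 ± 0.37, adjusted p = 8.0e-05) and was at −0.52 ± 0.36 in hCYP2B6-Tg females (difference 1.61 ± 0.50, adjusted p = 0.29).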
